A study of Homo sapiens with 2 samples.

Results

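The genes described here make, lengthen and desaturate fatty acids, pass them on to glycerolipids, or switch that programme on: FASN, ACACA, ACLY, SCD, ELOVL5, ELOVL6, FADS1, FADS2, GPAM and SREBF1. They are 10 named genes out of a table of 63677 Ensembl gene IDs, and 9 of them were matched by ID through a GRCh37 annotation. ACACA, which encodes the acetyl-CoA carboxylase that commits carbon to fatty acid synthesis, was not matched, so its expression is not analysed here. RNA was sequenced from the human line MDA-MB-231, grown from a triple-negative breast cancer, in 1 library of cells treated with Carpesium cernuum extract (CCE), an extract of a plant of the daisy family, and 1 library of control cells. The treatment text names 1 µg/mL CCE for 24 h and stands on both samples, so the groups follow the treatment label, and no source used here says what the control cells were given. Both groups are the same line, and the question is how the transcripts of treated cells compare with those of controls.

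Cells build fatty acids from citrate. ACLY splits citrate into acetyl-CoA, acetyl-CoA carboxylase turns part of it into malonyl-CoA, and FASN joins these units into palmitate. Elongases (ELOVL proteins) add further carbon units, desaturases (SCD, FADS1 and FADS2) introduce double bonds, and GPAM starts the attachment of the finished chains to glycerol. SREBF1 encodes SREBP1, a membrane-bound transcription factor that is released by cleavage and is known to switch on most of these genes. Many tumours, breast tumours among them, make fatty acids at a high rate.

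The CCE library held 34884501 counts on genes and the control library 5633569, so 1 count was worth 0.0283 CPM in the CCE library and 0.180 CPM in the control library (CPM, counts scaled to library size). With 1 library per group no test was possible. Each ratio carries an exact 95% Clopper-Pearson interval, which covers counting error alone, not culture-to-culture spread. The line's own markers were abundant, with the mesenchymal filament gene VIM at 1801 CPM in the CCE library and 3739 CPM in the control library. All 5 of these markers (VIM, CD44, EGFR, CAV1 and AXL) were lower in the CCE library. Of the 5, 3 were at least 1.5-fold lower with an interval excluding 1, against 11.3% of measured genes. The estrogen receptor gene ESR1 had 0 counts in both, which allows up to 0.0849 CPM in the CCE library and 0.540 CPM in the control library. The epithelial cadherin gene CDH1 had 1 count in the CCE library and 0 in the control library. Of 6 luminal, epithelial and HER2 markers, 3 were measured: ERBB2, the HER2 gene, at 51.8 CPM in the CCE library and 55.4 CPM in the control library, the epithelial adhesion gene EPCAM at 7.50 and 10.1 CPM, and the luminal factor gene GATA3 at 1.87 and 1.80 CPM. None of 6 markers of blood, endothelial, liver and fat cells reached a mean of 1 CPM.

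By counts, the elongases, the desaturases and GPAM were somewhat more abundant in the CCE library than in the control library, while ACLY and FASN were level and SREBF1 was slightly lower. By the deposited FPKM values, a second measure described further on and taken as log2(FPKM + 1), ELOVL6 had a log2 ratio of -0.099, FASN of -0.38 and ACLY of -0.76. All 9 matched genes were above the minimum of a mean of 1 CPM used for a measured gene. GPAM was 1.64-fold and ELOVL6 1.51-fold higher, and no gene was lower by 1.5-fold. These 2 of 9 stand against a background of 12.1% of 14424 measured genes that were at least 1.5-fold higher with an interval excluding 1, and the 0 of 9 against 11.3% that were at least 1.5-fold lower. At 2-fold the numbers were 0 and 0 of 9, against 4.36% higher and 4.92% lower. The interval lay wholly above 1 for 6 genes and wholly below 1 for SREBF1, where 30.1% and 25.1% of measured genes did so. The log2 ratio was above 0 for 7 of the 9 genes, against 53.9% of measured genes. The median log2 ratio of the 9 genes was 0.30, and that of all measured genes 0.05.

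**Figure D1:**
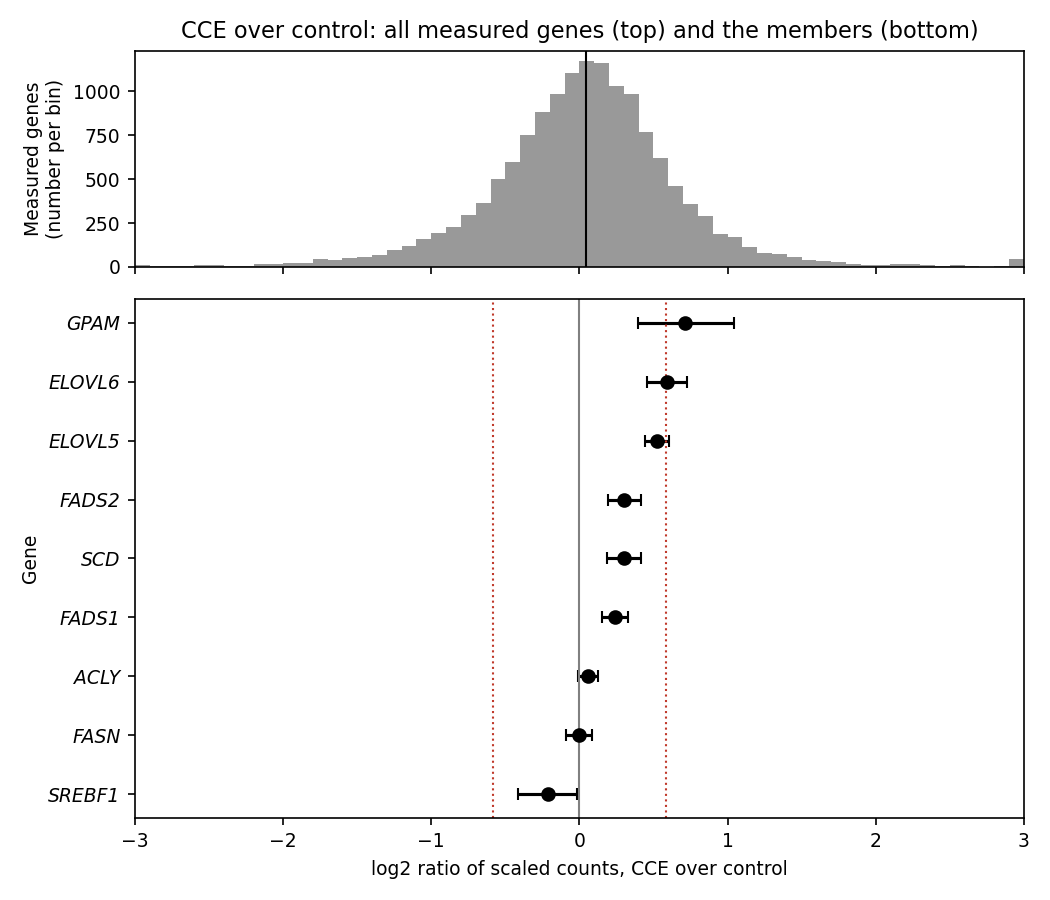
The horizontal axis is the ratio of scaled counts on a log2 scale (CCE over control). The top panel counts measured genes per bin, with ratios beyond either end of the axis placed in the end bins and a line at the median of 0.05; the bottom panel gives each matched gene as a point with its 95% counting interval, a grey line at 0 and dotted lines at 1.5-fold. GPAM at 0.71 and ELOVL6 at 0.59 lie past the upper dotted line, and SREBF1 at -0.21 is the one gene whose interval lies below 0.

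SREBF1 (chromosome 17, 17713713 to 17740316, minus strand, GRCh37) had 1353 counts in the CCE library and 247 in the control library, or 38.3 CPM against 44.4 CPM. The log2 ratio was -0.21 (-0.41 to -0.01), which is 13.8% lower in CCE. The interval came close to 0, and 30.8% of measured genes had a lower ratio, so SREBF1 sat in the lower part of the ordinary range. Of its 8234 merged exon bases, 6.75% overlap exons of RAI1 on the opposite strand. The counts do not separate its transcript forms.

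ACLY and FASN, at the start of the chain, had the count ratios nearest to 1, but not so by FPKM. ACLY (chromosome 17, 40023170 to 40086795) had 13416 counts in the CCE library and 2027 in the control library, or 380 CPM and 365 CPM. Its log2 ratio was 0.06 (-0.01 to 0.13). FASN (chromosome 17, 80036214 to 80056170) had 7927 counts in the CCE library and 1250 in the control library, which is 224 CPM and 225 CPM. Its log2 ratio was -0.0033 (-0.09 to 0.08), an interval of 0.940- to 1.06-fold that covers counting error alone at this scaling. By FPKM the log2 ratio of FASN was -0.38. The 2 genes summed gave a log2 ratio of 0.035 (-0.018 to 0.089), with 604 CPM in the CCE library and 589 CPM in the control library.

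The elongases stood higher in the CCE library by counts, while by FPKM ELOVL6 was below 0 (-0.099) and ELOVL5 at 0.08. ELOVL6, which lengthens palmitate to stearate (chromosome 4, 110967002 to 111120355), had 4709 counts in the CCE library and 492 in the control library, or 133 CPM against 88.5 CPM. The log2 ratio was 0.59 (0.46 to 0.73), higher than in 85.6% of measured genes. Its ratio of 1.51-fold only just passed 1.5-fold, and with upper-quartile scaling or with mitochondrial genes left out of the library size it fell short. ELOVL5, which lengthens polyunsaturated chains (chromosome 6, 53132196 to 53213977), had 12669 counts in the CCE library and 1385 in the control library, or 358 CPM against 249 CPM. It was 1.44-fold higher (1.36 to 1.52), just under the 1.5-fold line. Summed, both elongases were 1.46-fold higher (1.39 to 1.53).

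By counts the desaturases had smaller ratios than the elongases. By FPKM this order was not kept. SCD was at 0.34, FADS1 at 0.13 and FADS2 at 0.08 by FPKM, against 0.08 for ELOVL5 and -0.099 for ELOVL6. SCD, which makes oleate and palmitoleate from saturated chains (chromosome 10, 102106990 to 102124583), had 5635 counts in the CCE library and 720 in the control library, or 159 CPM and 129 CPM. Its log2 ratio was 0.30 (0.19 to 0.41). FADS2, which carries out the first desaturation step of polyunsaturated fatty acid synthesis (chromosome 11, 61560452 to 61634826, plus strand), had 5849 counts in the CCE library and 747 in the control library, or 165 CPM against 134 CPM. Its log2 ratio of 0.30 (0.19 to 0.41) could not be told from that of SCD. FADS1, a later desaturase of the same route (chromosome 11, 61567099 to 61596790, minus strand), had 8981 counts in the CCE library and 1198 in the control library, or 254 CPM against 215 CPM, a log2 ratio of 0.24 (0.15 to 0.33). FADS1 lies wholly within the annotated span of FADS2 on the opposite strand, and 5.57% of the exon bases of FADS1 and 5.11% of those of FADS2 overlap other genes. No source used here gives the strand setting of the counting, so how reads of the shared bases were assigned is uncertain. The 3 desaturases summed were 1.21-fold higher (1.16 to 1.26).

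GPAM, the mitochondrial acyltransferase that begins glycerolipid synthesis, had the highest ratio and the fewest counts. It lies on chromosome 10 from 113909623 to 113975135 and overlaps no exon of another gene. GPAM had 917 counts in the CCE library and 88 in the control library, or 25.9 CPM against 15.8 CPM. The ratio was 1.64-fold (1.32 to 2.06), higher than in 89.6% of measured genes. The 88 control counts set the width of that interval.

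**Figure D2:**
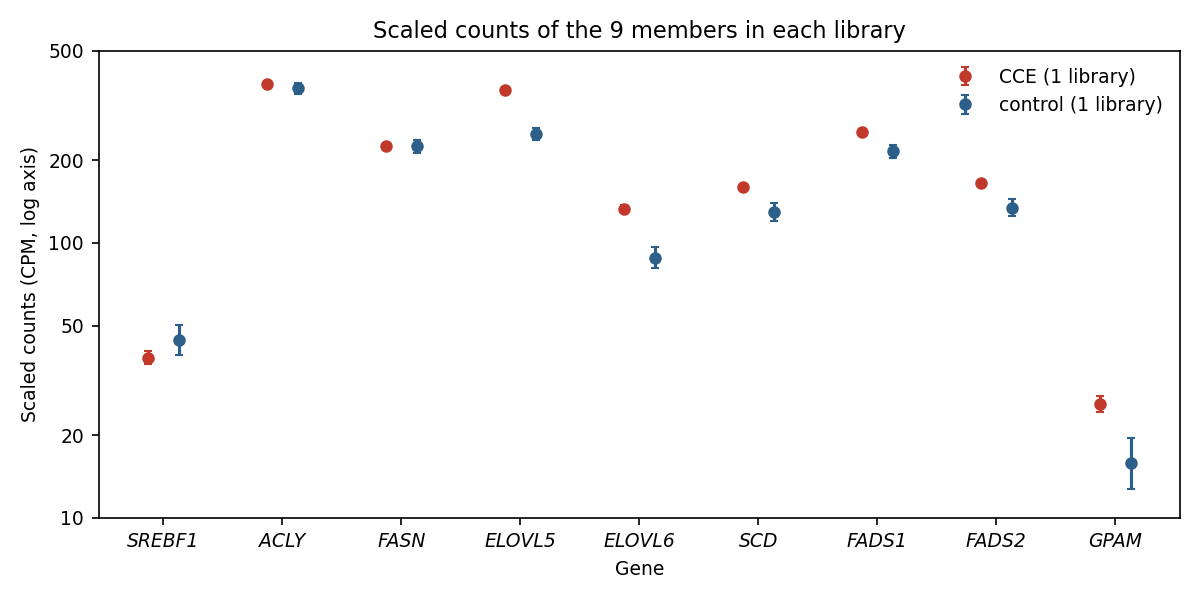
Scaled counts (CPM, log axis) of the 9 matched genes, with CCE in red and control in blue and bars for the exact 95% Poisson counting interval of the single library. The bars of both libraries are clear of each other for both elongases, the 3 desaturases and GPAM, and overlap for ACLY, FASN and SREBF1, whose values are 380 and 365 CPM, 224 and 225 CPM, and 38.3 and 44.4 CPM in CCE and control. The share of all measured genes with bars clear of each other was not taken.

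Setting the intervals of the count ratios beside each other, 26 of the 36 pairs of genes did not overlap. Intervals narrow as counts rise, and the control counts of these genes ran from 88 to 2027. The share was not taken over pairs of all measured genes, so whether 26 of 36 is usual is not known. The 26 pairs are therefore not read as a trait of these genes. ELOVL5 and ELOVL6 overlapped with each other and with GPAM, but with none of the 3 desaturases. By FPKM, for which no intervals were taken, neither elongase stood above SCD or FADS1. The desaturases overlapped with one another and lay wholly above ACLY and FASN. GPAM overlapped with SCD and FADS2 because of its wide interval. SREBF1 lay apart from every other gene except FASN. These are comparisons of counting error between genes of the same 2 libraries, so a difference between the cultures would enter all of them.

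Levels of different genes can be compared per length, as CPM per kilobase of merged exons. In the CCE library ELOVL5 led with 94.0 CPM per kilobase and ACLY followed with 72.9, while in the control library ACLY had 70.0 and ELOVL5 65.3, with overlapping counting intervals (67.0 to 73.1 and 61.9 to 68.9). In the CCE library the next were SCD at 30.4, FADS1 at 24.8, FASN at 24.1, ELOVL6 at 18.3 and FADS2 at 15.7 CPM per kilobase, and of these only FADS1 and FASN had overlapping intervals. The same 5 genes in the control library had 24.7 (SCD), 21.1 (FADS1), 24.1 (FASN), 12.2 (ELOVL6) and 12.7 (FADS2) CPM per kilobase. SREBF1 had 4.65 CPM per kilobase in the CCE library and 5.39 in the control library, and GPAM 2.65 and 1.61. So by this measure the enzymes of chain building and desaturation lay above 76.4% or more of measured protein-coding genes in the CCE library. In the control library they lay above 71.2% or more, while SREBF1 and GPAM lay in the middle and lower part. By the deposited FPKM the order differed. ELOVL5 was highest in both libraries, at 72.5 FPKM in CCE and 68.6 in control. SCD (55.5), FADS1 (38.2), FADS2 (34.7) and ELOVL6 (28.0) stood above ACLY (20.7) in the CCE library. In the control library SCD, at 43.6, stood above ACLY at 35.6, while FADS1 (34.7), FADS2 (32.8) and ELOVL6 (30.1) stood below it.

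Promoters are shown so that the sequence at the gene starts can be set beside the values. They belong to the 3 genes with the highest count ratios and to SREBF1, the one gene whose interval lies below 0. The promoters are RefSeq windows of 300 bases, 250 before and 50 after an annotated start, on GRCh38.p14, each read 5′ to 3′ along the gene. Capitals mark matches, on either strand, to 4 short motifs: CCAAT (NF-Y box), GGGCGG (GC box, bound by Sp1), CACGTG (E-box) and ATCACCC (the first bases of a sterol regulatory element, the site that SREBP binds).
GPAM, chr10:112183716-112184015 (GRCh38.p14, minus strand): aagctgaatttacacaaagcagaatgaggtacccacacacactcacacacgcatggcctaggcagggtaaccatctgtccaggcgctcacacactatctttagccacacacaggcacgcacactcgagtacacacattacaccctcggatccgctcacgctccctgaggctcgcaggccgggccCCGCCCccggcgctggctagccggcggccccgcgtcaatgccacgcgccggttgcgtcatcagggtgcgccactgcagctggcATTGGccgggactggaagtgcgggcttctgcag
ELOVL6, chr4:110198566-110198865 (GRCh38.p14, minus strand): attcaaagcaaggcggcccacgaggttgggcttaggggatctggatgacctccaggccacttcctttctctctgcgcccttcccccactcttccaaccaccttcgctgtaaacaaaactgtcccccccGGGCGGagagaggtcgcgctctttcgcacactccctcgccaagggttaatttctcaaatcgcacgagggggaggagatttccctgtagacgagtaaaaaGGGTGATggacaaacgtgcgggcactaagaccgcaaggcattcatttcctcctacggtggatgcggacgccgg
ELOVL5, chr6:53348901-53349200 (GRCh38.p14, minus strand): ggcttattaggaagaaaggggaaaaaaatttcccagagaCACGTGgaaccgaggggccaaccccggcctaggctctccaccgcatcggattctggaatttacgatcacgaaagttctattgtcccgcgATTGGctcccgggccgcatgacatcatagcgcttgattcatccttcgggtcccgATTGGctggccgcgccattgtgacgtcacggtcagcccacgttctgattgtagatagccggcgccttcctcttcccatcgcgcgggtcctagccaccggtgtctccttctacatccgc
SREBF1, chr17:17836937-17837236 (GRCh38.p14, minus strand): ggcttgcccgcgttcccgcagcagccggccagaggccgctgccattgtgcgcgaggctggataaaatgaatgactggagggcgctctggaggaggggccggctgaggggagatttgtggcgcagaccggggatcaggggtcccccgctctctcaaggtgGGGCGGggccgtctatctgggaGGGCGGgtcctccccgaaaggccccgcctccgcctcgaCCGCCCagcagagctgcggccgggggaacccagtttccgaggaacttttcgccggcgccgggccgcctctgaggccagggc

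Windows were found for 9 of the 10 genes, ACACA included and FASN apart, and some genes have several, 13 windows in all. The sterol element TCACNCCAC was in none of the 13 windows and in 1.13% of 35114 RefSeq windows. ATCACCC, which overlaps one form of that element, was found in the ELOVL6 window, on the minus strand from position -23 relative to the start, and in no other of the 13, against 2.43% of all windows. The E-box was found in the ELOVL5 window at position -211, against 7.26% of all windows. At least 1 CCAAT was found in 8 of the 13 windows and in 34.6% of all windows, and at least 1 GC box in 10 of the 13 and in 45.0% of all windows. By gene these were 6 of 9 and 8 of 9. The windows are not independent, since those of ACLY overlap and hold the same matches. Their GC content ran from 45.3% to 82.3%, mostly above the median of 58.7% over all windows, and was not taken into account. The ELOVL5 window holds 2 CCAAT matches and no GC box, the ELOVL6 window a GC box and no CCAAT, and the GPAM window 1 of each, so these 3 genes share no single one of the motifs. The SREBF1 window holds 3 GC boxes and no CCAAT. A match is a description of letters and not a measured site, the start used in these cells is not known, and the motifs were chosen with the sequences in view.

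Beside the counts in the other lists of lipid metabolism stand the same 12.1% of all measured genes called higher and 11.3% called lower at 1.5-fold. Of 29 measured genes among 37 others of fatty acid synthesis, elongation, desaturation and activation, 3 were called higher and 1 lower at 1.5-fold, with a median log2 ratio of 0.06. ME1, the malic enzyme that supplies NADPH, had 3736 counts in the CCE library and 317 in the control library, a log2 ratio of 0.89 (0.72 to 1.06), but -0.39 by FPKM. ELOVL7, another elongase, had 318 counts in the CCE library and 30 in the control library, a log2 ratio of 0.74 (0.20 to 1.33). The lower gene was ACACB, the second acetyl-CoA carboxylase, with 62 counts in the CCE library and 19 in the control library and a log2 ratio of -0.96 (-1.72 to -0.14); by FPKM it had 0.235 in the CCE library against a listed 0 in control. The most abundant genes of the list, HSD17B12, which acts in each round of elongation, and DEGS1, the ceramide desaturase, had log2 ratios of 0.33 (0.23 to 0.43) and -0.21 (-0.31 to -0.12).

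Among 31 measured regulators of SREBP, LXR, ChREBP and the energy sensor AMPK, 3 were at least 1.5-fold higher and 0 lower, with a median of 0.09. They included PRKAG1 at 0.71 (0.50 to 0.93) and PRKAB2 at 0.68 (0.36 to 1.03), both subunits of AMPK. Of the exon bases of PRKAG1, 61.8% overlap another gene. INSIG1, the retention protein of SREBP and itself a known SREBP target, had 3965 counts in the CCE library and 631 in the control library, a log2 ratio of -0.017 (-0.14 to 0.11). MLX, the partner of ChREBP, had -0.017 (-0.14 to 0.11).

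Cholesterol genes, the usual targets of SREBP2, had a median of 0.19 over 23 measured members, with 3 called higher and 2 called lower at 1.5-fold. HSD17B7, an enzyme of the later steps of cholesterol synthesis, was at 0.80 (0.50 to 1.11) but at -0.67 by FPKM, and the abundant gene FDPS, which encodes farnesyl diphosphate synthase, was at 0.040 (-0.037 to 0.118) and at -0.71 by FPKM.

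GPAM feeds the synthesis of glycerolipids. Of 23 measured genes of glycerolipid synthesis and storage, 1 was at least 1.5-fold higher and 2 were lower, with a median of 0.05. AGPAT5, an acyltransferase of the next step, had a log2 ratio of 0.63 (0.42 to 0.85), but 0.04 by FPKM. The lipolysis genes G0S2, an inhibitor of adipose triglyceride lipase, and MGLL, the monoglyceride lipase, had -1.38 (-1.56 to -1.19) and -0.72 (-0.85 to -0.59). PLIN2, a lipid droplet coat protein gene, had 10243 counts in the CCE library and 1247 in the control library, a log2 ratio of 0.37 (0.28 to 0.46), and AGPAT1 had -0.05 (-0.15 to 0.05).

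Of 31 measured genes of fatty acid oxidation, the route opposite to synthesis, 3 were at least 1.5-fold higher and 1 lower, with a median of 0.08. MLYCD, which breaks down malonyl-CoA, had 202 counts in the CCE library and 12 in the control library, a log2 ratio of 1.41 (0.57 to 2.38). Of the exon bases of MLYCD, 12.9% overlap other genes, and it had 2.04 FPKM in CCE against a listed 0 in control. ETFB, an electron carrier subunit, had 0.86 (0.56 to 1.18) but -0.30 by FPKM. ACOT2, a mitochondrial thioesterase, had -0.73 (-1.02 to -0.44). The abundant oxidation genes HADHA and ECHS1 had 0.44 (0.34 to 0.54) and -0.15 (-0.23 to -0.06), and -0.08 and 0.09 by FPKM. Among 14 genes of fatty acid uptake and binding, 6 were measured, of which 1 was called higher and 0 lower. MFSD2A, a lysophospholipid transporter, had 1.07 (0.40 to 1.83), SLC27A4 had 0.32 (0.19 to 0.45), SLC27A1 had -0.44 (-0.852 to -0.004) but 0.656 FPKM in CCE against a listed 0 in control, and LIPA, the lysosomal acid lipase, had -0.07 (-0.19 to 0.05) and 2.35 by FPKM.

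**Figure D3:**
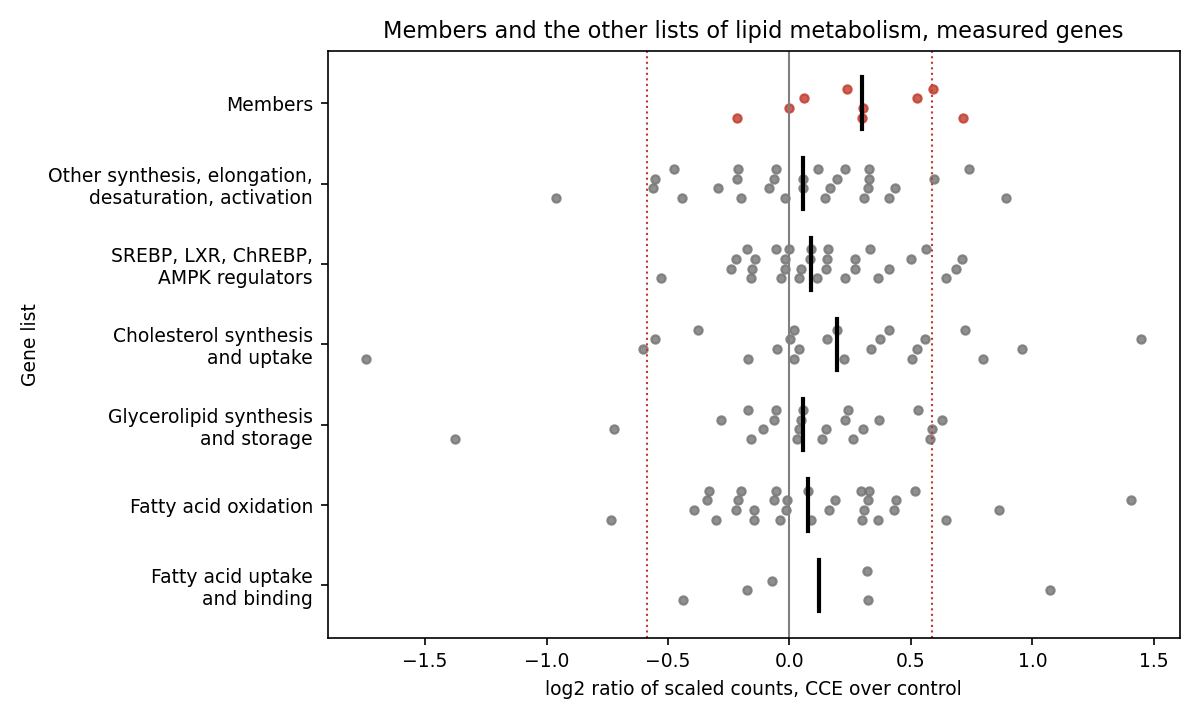
Ratio of scaled counts on a log2 scale (CCE over control) for measured genes of each list, 1 point a gene, with a black bar at the list median and dotted lines at 1.5-fold. The median of the 9 matched fatty acid synthesis and desaturation genes was 0.30, and the medians of the other lists were 0.06, 0.09, 0.19, 0.05, 0.08 and 0.12 from top to bottom.

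The authors' deposited FPKM values (fragments per kilobase, scaled to depth), summed per gene, gave a different picture for some of these genes. The difference was not limited to them. Over 10670 measured genes above 0 FPKM in both libraries, the log2 ratios by log2(FPKM + 1) and by counts had a Spearman rank correlation of 0.35. GPAM was at 1.40 FPKM in the CCE library and was listed at 0 in the control library despite its 88 counts, so no ratio was taken. By log2(FPKM + 1), 4 of the other 8 were above 0 and 4 below, where 38.2% of all measured genes above 0 FPKM in both libraries were above 0. SCD, with 1 row in the table, had 55.5 FPKM in the CCE library and 43.6 FPKM in the control library, a log2 ratio of 0.34 that was close to its ratio from counts. FADS1 had 38.2 and 34.7 FPKM, FADS2 34.7 and 32.8, and ELOVL5 72.5 and 68.6 in CCE and control, with log2 ratios of 0.13, 0.08 and 0.08. ELOVL6 had 28.0 FPKM in the CCE library and 30.1 FPKM in the control library, below 0 at -0.099. FASN had 19.0 and 24.9 FPKM and SREBF1 4.35 and 5.35 in CCE and control, at -0.38 and -0.25.

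ACLY differed most between both measures, with 20.7 FPKM in the CCE library and 35.6 FPKM in the control library and a log2 ratio of -0.76, against 0.06 by counts. It was the 1 gene past 1.5-fold on that scale, with 0 genes higher, where 30.5% of measured genes were lower and 16.4% higher. The FPKM table has several rows per gene ID, taken here as transcripts and not named in it. The row that was highest for ACLY in the control library, at 16.3 FPKM, held 0.153 FPKM in the CCE library, where another row held 15.7 FPKM and had 13.4 FPKM in the control library. For ELOVL6 the highest row was the same in both libraries and stood at 20.1 FPKM in CCE and 17.7 FPKM in control, so the row itself was higher in CCE while the remaining rows summed to 7.89 and 12.4 FPKM. For SREBF1, 13 of 25 rows were above 0 in 1 library only. The FPKM ratio of all genes was lower too: over 10670 measured genes above 0 FPKM in both libraries its median was -0.21, while the same genes had 0.05 by counts. Relative to that median, SCD, ELOVL5, ELOVL6, FADS1 and FADS2 lay above it by FPKM, at 0.55, 0.29, 0.11, 0.34 and 0.28, and FASN, ACLY and SREBF1 lay below, at -0.17, -0.55 and -0.04.

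**Figure D4:**
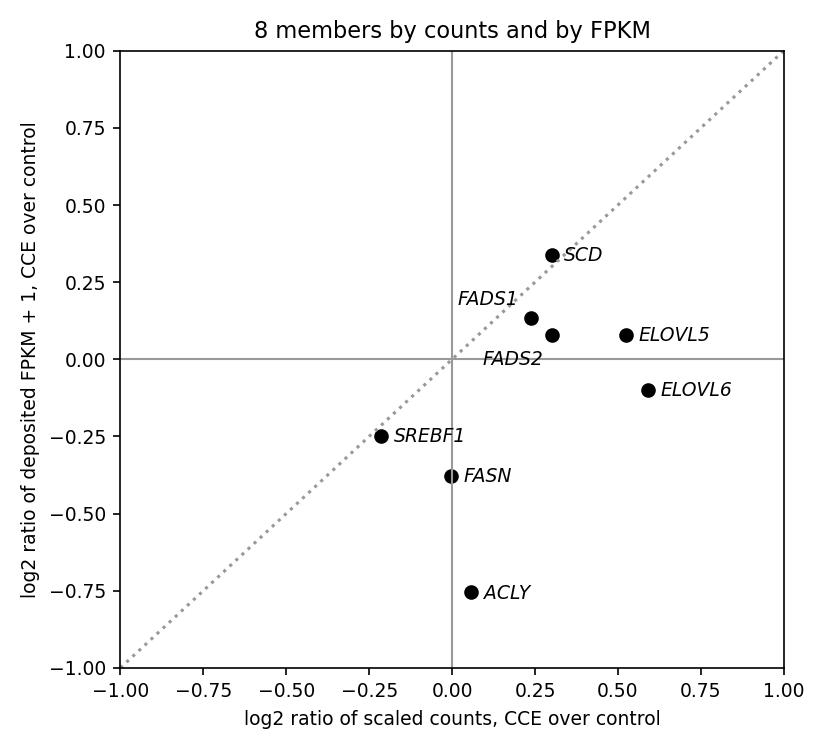
Log2 ratio, CCE over control, from scaled counts (horizontal) and from the deposited FPKM + 1 (vertical) for the 8 matched genes above 0 FPKM in both libraries, with the diagonal of equal ratios dotted. SCD and SREBF1 lie close to the diagonal, ELOVL6 lies at 0.59 by counts and -0.099 by FPKM, and ACLY at 0.06 and -0.76.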

How the data were processed

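RNA of 1 CCE library and 1 control library of MDA-MB-231 cells was sequenced; groups come from the treatment label. Per the submitters' processing notes HISAT2 and the builds hg19 and GRCh37 were used; the counter, its strand setting, its annotation and the FPKM program are not given by those notes or the labels. The authors deposited raw counts per Ensembl gene and FPKM values with 215170 rows per library, which were summed per gene. The 5 rows of each count table that name no gene held 66.8% of the records of the CCE library and 62.9% of those of the control library and were left out.

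Symbols, positions and merged exons came from GENCODE release 44 lifted to GRCh37, which matched 55665 of 63677 IDs. Library sizes were scaled by TMM (edgeR 4.0.16, R 4.3.3; factors 1.01 for CCE and 0.987 for control). Ratios were taken without a pseudocount, with exact 95% Clopper-Pearson intervals (Python 3.11.15, scipy 1.17.1, pandas 2.3.3). Since PCR copies are not independent, intervals and floors (3 counts) describe counting error alone. Measured genes had a mean of at least 1 CPM and were called at 1.5-fold or 2-fold with an interval excluding 1. With 1 library per group there is no test and no p-value. The procedure was tested on simulated data that held Poisson counting error alone. That test cannot speak to culture-to-culture spread, PCR copies, the choice of scaling or the difference between counts and FPKM.

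The genes and lists were chosen with earlier results of these data known. Named genes were the members and, of each other list, up to 3 measured genes with the largest absolute log2 ratio among those with an interval excluding 1, and the 2 most abundant; not every gene so picked is reported here. Promoters came from RefSeq. Alternatives were other scalings (total counts, upper quartile, DESeq2 1.42.0), other filters, FPKM with pseudocounts of 1 and 0.1, a pseudocount of 0.5 CPM, the library size without mitochondrial genes, members free of exon overlap, and the 2-fold threshold.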

Additional observations from a re-analysis of the deposited data

How the results depend on the processing

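Over all alternatives based on counts, each of the 9 genes kept its direction except FASN, whose log2 ratio lay between -0.048 and 0.034. This was fixed in advance for genes farther from 0. The other scalings shift all log2 ratios alike, by -0.045 (upper quartile) to 0.038 (total counts). The filters and the pseudocount cannot change a direction. The counting interval of ACLY held 0. The median log2 ratio of the genes was 0.26 to 0.34 under the other scalings, filters and the pseudocount, and 0.41 over the 4 genes that overlap no exon of another gene (FASN, SCD, ELOVL5 and GPAM). The number at least 1.5-fold higher, 2 in the main analysis, was 1 with upper-quartile scaling, 1 with mitochondrial genes left out of the library size (ELOVL6 dropped to a log2 ratio of 0.55 and 0.55), 1 among the genes free of overlap, and 0 at the 2-fold threshold. By the deposited FPKM, over the 8 genes above 0 in both libraries, it was 0; GPAM, at 1.40 FPKM in CCE and listed at 0 in control, took no part. In that set 1 gene (ACLY) was at least 1.5-fold lower, at a pseudocount of 1 and likewise at 0.1. The FPKM median over 8 genes was -0.0107 at a pseudocount of 1 and -0.0112 at 0.1, and ELOVL6 was at -0.099 and -0.10; the cause was not tested. Of measured genes, 1846 stood at 0 FPKM in CCE and 3491 in control. The shallower control library limits precision, most of all for GPAM. No paired analysis was possible because each group has 1 library.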

Other observations

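Some relatives and partners of these genes, picked after their values were seen, gave further values. SREBF2, the SREBP gene of the cholesterol branch, had a log2 ratio of 0.09 (-0.04 to 0.22), and SCAP, the escort protein of both SREBPs, had 0.15 (0.003 to 0.297). FADS3, the neighbour and paralog of FADS1 and FADS2, had 1594 counts in the CCE library and 288 in the control library, a log2 ratio of -0.20 (-0.38 to -0.01), unlike those 2 genes. SCD5, the paralog of SCD, had 478 counts in the CCE library and 60 in the control library, at 0.33 (-0.06 to 0.74). Of the enzymes and carriers that feed the pathway, ACSS2, which makes acetyl-CoA from acetate, had 0.31 (0.07 to 0.55), SLC25A1, which exports citrate from mitochondria, had -0.29 (-0.44 to -0.14), and IDH1, a source of NADPH, had 0.59 (0.45 to 0.74). CPT1A, the entry enzyme of mitochondrial fatty acid oxidation, had -0.15 (-0.31 to 0.02). By FPKM the direction was the other for SREBF2 (-0.98), SCAP (-1.43) and CPT1A (1.57).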
